A study of Mus musculus with 9 samples.

Results

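Eicosanoids are signalling lipids that cells make from arachidonic acid, and the 10 genes described here encode the enzymes of their main routes of synthesis: Ptgs1, Ptgs2, Ptges, Hpgds, Tbxas1, Alox5, Alox5ap, Alox15, Lta4h and Ltc4s. They were chosen by name, as the cyclooxygenases, prostaglandin and thromboxane synthases, lipoxygenases and leukotriene enzymes, out of 57238 entries in the gene table. All 10 had enough reads to pass the filter on low counts, which kept 15028 genes. The RNA came from bone marrow-derived dendritic cells (BMDCs) of wild-type C57BL/6 mice, young adults by the study's methods, whose marrow was kept in GM-CSF at 20 ng/ml, for 6 days by the labels and for a week by the methods. There were 3 libraries in each of 3 groups. The control group (CTR) was left untreated, the NE group was given exosomes of NIH-3T3, a non-cancerous mouse fibroblast line, for 24 h, and the TDE group was given exosomes of tumor cells (TDEs) for 24 h. The labels do not name the tumor line, and the methods leave it as TC-1 (cervical carcinoma) or MC38 (colon carcinoma). No allele or drug was added to any group, and nothing states that the 3 libraries of a group came from separate mice or cultures, so the p-values measure only the spread between these libraries, which may be technical.

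Free arachidonic acid has 2 main fates in myeloid cells. The cyclooxygenases PTGS1 and PTGS2 convert it to prostaglandin H2, which terminal synthases turn into prostaglandin E2 (PTGES), prostaglandin D2 (HPGDS) or thromboxane A2 (TBXAS1). The 5-lipoxygenase ALOX5, helped by its activating protein ALOX5AP, converts it to leukotriene A4, from which LTA4H makes leukotriene B4 and LTC4S makes leukotriene C4, while ALOX15 oxygenates it elsewhere on the chain. In dendritic cells, prostaglandin E2 is known to affect migration and cytokine output.

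Values are counts per 1000000 reads (CPM), with library sizes scaled by the trimmed mean of M values (TMM), and calls are at an adjusted p under 0.05 in a quasi-likelihood F test over all tested genes. Libraries held from 17469782 to 21092943 estimated reads on genes, so 3 reads, the lowest count given weight here, amounted to 0.142 to 0.172 CPM. CTR library 1 stood apart: its mean correlation with the other CTR libraries was 0.854, whereas the lowest among the other 8 libraries was 0.929. Relative to the mean of CTR libraries 2 and 3, its genes of up to 1000 bases had a median log2 difference of 1.63 (1543 genes) and those over 4000 bases of -0.79 (3811 genes). Among the members, this log2 difference was 2.52 for the shortest gene, Ltc4s (716 bases), and -1.25 for Hpgds (3476 bases). Results are therefore given with and without this library. All 9 libraries entered 1 fit with a shared estimate of spread, so leaving it out also changes the p-values of TDE against NE. The common dispersion, which measures spread within groups, was 0.106 with this library and 0.0150 without it. Of the defining markers of dendritic cells, Itgax, Flt3, Zbtb46 and the MHC class II genes were detected in all 9 libraries, and Cd209a was at or near 0 (0 in the TDE group and no more than 0.163 CPM elsewhere).

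The sequences just upstream of Ptgs2 and Ptges, the members that rose, are shown with that of Ptgs1, the other cyclooxygenase gene, which moved the other way. They are the 250 bases before the RefSeq start on GRCm38.p6, written 5′ to 3′ on the strand of the gene at chr1:150099781-150100030 (plus strand) for Ptgs2, chr2:30903298-30903547 (minus strand) for Ptges and chr2:36230176-36230425 (plus strand) for Ptgs1. Capitals mark a C/EBP palindrome in Ptgs2 and a pair of Egr cores in Ptges.
Ptgs2: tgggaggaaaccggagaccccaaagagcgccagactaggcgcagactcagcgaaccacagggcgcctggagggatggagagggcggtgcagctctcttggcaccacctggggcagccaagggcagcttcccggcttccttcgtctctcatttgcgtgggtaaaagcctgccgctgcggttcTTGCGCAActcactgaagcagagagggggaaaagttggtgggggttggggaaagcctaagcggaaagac
Ptges: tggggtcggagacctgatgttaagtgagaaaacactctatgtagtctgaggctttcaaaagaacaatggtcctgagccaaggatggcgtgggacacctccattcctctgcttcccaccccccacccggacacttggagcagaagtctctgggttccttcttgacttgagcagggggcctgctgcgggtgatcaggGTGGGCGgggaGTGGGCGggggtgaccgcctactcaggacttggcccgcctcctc
Ptgs1: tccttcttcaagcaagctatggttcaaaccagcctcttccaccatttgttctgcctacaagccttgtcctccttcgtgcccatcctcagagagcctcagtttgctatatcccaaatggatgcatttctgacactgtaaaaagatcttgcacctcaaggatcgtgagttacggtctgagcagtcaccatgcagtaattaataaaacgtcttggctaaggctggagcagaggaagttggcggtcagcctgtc
A further stretch of Ptgs2 lies just after the annotated start, at chr1:150100036-150100059 (plus strand), with a CRE half-site and an E-box that overlap it in capitals.
Ptgs2 start: caccactaCGTCACGTGgagtccg

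The 8 motifs searched on both strands were the CRE half-site (TGACG), the E-box (CACGTG), the C/EBP palindrome (TTGCGCAA), the TATA box (TATAAA), the GC box (GGGCGG), the Egr core (GTGGGCG), AP-1 (TGANTCA) and the kappa-B consensus. Windows of 300 bases, with 50 after the start, were searched in 27025 promoters. Of the 10 members, 8 had an entry, and Alox15 and Alox5ap had none and were not searched. Ptgs2 held the palindrome at positions -69 to -62, which 0.185% of promoters hold. It also held a half-site on the minus strand at positions 14 to 18, which 21% hold, and an overlapping E-box at positions 17 to 22, which 7.24% hold. Ptges held Egr cores at -55 to -49 and -44 to -38, and 8.04% of promoters hold at least 1, overlapping GC boxes at -53 to -48 and -42 to -37, which 35.9% hold. Ptgs1, Hpgds, Lta4h and Ltc4s held none of these letters in their windows. A TATA box (14.2% of promoters) and an AP-1 match (7.93%) were found in Tbxas1, and a GC box in Alox5 and in Ptgs2. The kappa-B consensus was in 4.35% of promoters and in no window of the 8 members searched. Whether any of these motifs bears on expression was not tested.

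Ptgs2, which encodes the inducible cyclooxygenase, and Ptges, which encodes the inducible synthase of prostaglandin E2, rose in TDE-treated BMDCs, whereas Ptgs1, the constitutive cyclooxygenase, and Alox15 fell. Against CTR BMDCs, 4 of the 10 genes passed the test in a comparison where 16.9% of all tested genes passed, and 2 were higher (7.57% of all genes) and 2 lower (9.34%). Against NE-treated BMDCs, Ptgs2 and Ptges (higher) and Ptgs1 and Alox15 (lower) passed, where 13.9% of all genes did, 6.73% higher and 7.21% lower. The TDE comparisons share the TDE libraries. The libraries of the groups did not overlap for 6 of 10 members against CTR (44.0% of all genes) and 8 of 10 against NE (54.5%). Without CTR library 1, 7 members passed in each comparison, 2 higher and 5 lower. The shares of all genes were then 34.4% against CTR (16.4% higher and 18.0% lower) and 40.7% against NE (19.2% higher and 21.5% lower). The median log2 fold change of the 10 members was -0.17 against CTR and -0.21 against NE, beside -0.05 and -0.02 over all genes.

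**Figure D1:**
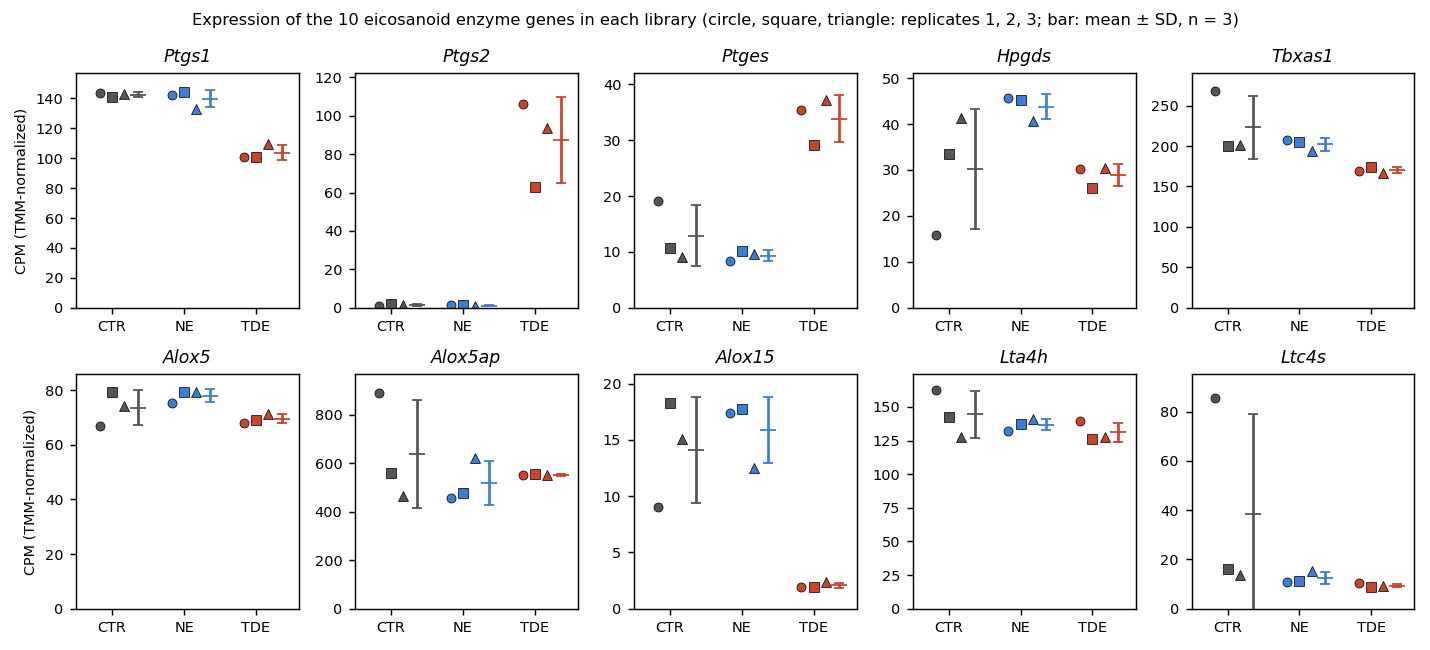
TMM-normalized CPM of each member gene (vertical axes, each from 0) in the 3 CTR, 3 NE and 3 TDE libraries, with replicates 1, 2 and 3 as circle, square and triangle and bars for mean ± SD (n = 3); the lower end of the Ltc4s CTR bar falls below 0 and is not drawn. Ptgs2 reached 62.8 to 106 CPM in TDE libraries and no more than 1.81 elsewhere, and CTR library 1 stands apart for Ltc4s at 85.4 CPM.

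For Ptgs2 (chr1:150100031-150108227), the CTR libraries held 1.14, 1.81 and 1.41 CPM, the NE libraries 1.33, 1.41 and 0.845 CPM, and the TDE libraries 106, 62.8 and 93.4 CPM. All 3 TDE libraries were far above the other 6, although TDE library 2 held less than its neighbours. The log2 fold change was 5.89 ± 0.32 (SE, adjusted p = 6.13e-05) against CTR and 6.19 ± 0.32 (adjusted p = 3.68e-05) against NE. Without CTR library 1 the first was 5.74. No other gene's exons overlap Ptgs2 in the annotation.

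Ptgs1 (chr2:36230426-36252272) held 144, 141 and 143 CPM in CTR libraries, 142, 144 and 133 CPM in NE libraries, and 101, 101 and 110 CPM in TDE libraries. The TDE libraries were lower than all of the other 6, by a margin that was small beside that of Ptgs2. It fell by 0.46 on the log2 scale (SE 0.11, adjusted p = 0.0249) against CTR and by 0.43 (SE 0.11, adjusted p = 0.0339) against NE. The call depended on the fit: with library totals in place of the TMM factors the adjusted p was 0.164 against CTR and 0.111 against NE, and the call was kept in 7 of 17 alternatives in each comparison, among them without CTR library 1 (adjusted p = 0.00153 and 0.000915). Leaving out TDE library 1 (adjusted p = 0.126 and 0.163), 2 (0.121 and 0.157) or 3 (0.0854 and 0.104) ended both calls, as did leaving out CTR library 2 (0.0633 and 0.064) or NE library 1 (0.0596 and 0.130) or 2 (0.0586 and 0.136), and leaving out NE library 3 ended the call against NE (0.0677). On the opposite strand, Gm43621 overlaps an exon of Ptgs1, and no source states whether counting used the strand.

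The balance of the cyclooxygenases can be read inside each library, where scaling does not matter. Per base of gene length, the Ptgs2/Ptgs1 ratio of reads had a geometric mean of 0.00658 in CTR, 0.00549 in NE and 0.531 in TDE libraries. The ratio was 80.7-fold higher in TDE than in CTR libraries and 96.6-fold higher than in NE libraries. These are log2 differences of 6.33 and 6.59, each with an exact permutation p = 0.1, the smallest that 3 libraries against 3 allow. Ptgs1 remained the more abundant transcript per length in all 3 TDE libraries, at 36.2 ± 1.79 CPM per kb against 19.6 ± 5.01 for Ptgs2 (SD, n = 3). Before division by length, TDE library 1 held more Ptgs2 (106 CPM) than Ptgs1 (101 CPM), and TDE libraries 2 and 3 held less.

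Ptges (chr2:30889471-30929863) held 19.1, 10.6 and 9.03 CPM in CTR libraries, 8.33, 10.1 and 9.55 CPM in NE libraries, and 35.3, 29.1 and 37.1 CPM in TDE libraries. CTR library 1 was the highest of the 6 others and still below each TDE library. The log2 fold change was 1.39 ± 0.27 (SE, adjusted p = 0.0115) against CTR and 1.86 ± 0.28 (adjusted p = 0.00368) against NE, and 1.77 against CTR without CTR library 1. In a fit to the 6 libraries of TDE and CTR alone the adjusted p was 0.0579. Its cytosolic counterpart Ptges3, also a cochaperone, held 60.7 to 76.6 CPM in CTR, 64.4 to 80.8 in NE and 67.9 to 75.8 in TDE libraries. The Ptges/Ptges3 ratio per length was 2.63-fold higher in TDE than in CTR and 3.49-fold higher than in NE libraries (exact permutation p = 0.1 each).

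Tbxas1 (chr6:38875404-39084585), which encodes thromboxane A synthase, held 269, 200 and 202 CPM in CTR, 208, 205 and 193 in NE, and 169, 174 and 167 in TDE libraries. Every TDE library was below the other 6. The log2 fold change was -0.39 against CTR (adjusted p = 0.101) and -0.25 against NE (adjusted p = 0.344), which did not pass. Without CTR library 1 the values were -0.25 (adjusted p = 0.0200) and -0.26 (adjusted p = 0.00888).

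Hpgds (chr6:65117293-65144908), which encodes the hematopoietic prostaglandin D2 synthase, held 15.8, 33.5 and 41.4 CPM in CTR, 45.6, 45.2 and 40.6 in NE, and 30.3, 26.1 and 30.4 in TDE libraries. The TDE libraries lay below the NE libraries without overlap, and between CTR library 1 and the other CTR libraries. The log2 fold change was -0.06 against CTR (95% interval -0.75 to 0.62) and -0.60 against NE (adjusted p = 0.257). Without CTR library 1 it was -0.38 against CTR (adjusted p = 0.0327) and -0.61 against NE (adjusted p = 0.00176). Without CTR library 2 or 3, or without TDE library 2, the sign against CTR turned, at 0.02, 0.23 and 0.01. The Tbxas1/Hpgds ratio per length was 1.28-fold higher in TDE than in NE libraries (exact permutation p = 0.1). Its log2 difference between TDE and CTR was -0.42 (exact permutation p = 0.8), or 0.13 without CTR library 1. NE libraries also lay below CTR libraries without overlap, by -0.78 (exact permutation p = 0.1), or -0.22 without CTR library 1.

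Alox15 (chr11:70344152-70352031), which encodes the mouse 12/15-lipoxygenase, held 9.0, 18.2 and 15.1 CPM in CTR libraries, 17.4, 17.8 and 12.5 CPM in NE libraries, and 1.94, 1.91 and 2.35 CPM in TDE libraries. The TDE libraries were close to each other and far below the rest. Alox15 was 6.81-fold lower than in CTR (log2 fold change -2.77 ± 0.29, SE, adjusted p = 0.000788) and 7.66-fold lower than in NE (-2.94 ± 0.29, adjusted p = 0.000528), and its log2 fold change without CTR library 1 was -3.02 against CTR. Other genes on chromosome 11 encode related lipoxygenases, so some reads may be shared among them.

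Alox15 is known from eosinophils and macrophages, so the markers of other cell types that such a culture can hold are set beside it. Of all genes, 9.34% passed as lower and 7.57% as higher against CTR, and 7.21% and 6.73% against NE. All 9 eosinophil markers on the list fell against CTR and 8 of 9 against NE, and their summed level was 634 to 1718 CPM in CTR, 648 to 737 in NE and 118 to 147 in TDE libraries. Of the 8 mast cell and basophil markers tested, 7 fell against CTR and 8 against NE, with sums of 209 to 463, 224 to 298 and 66.9 to 72.2 CPM. Mcpt4 was at 0 in all libraries and Cma1 at or near 0. Neutrophil markers summed to 7188 to 28204 CPM in CTR, 7577 to 10826 in NE and 3290 to 3588 in TDE libraries (7 of 10 fell against CTR and 5 of 10 against NE). Macrophage markers summed to 4187 to 4597, 3980 to 4435 and 5277 to 5653 CPM, where Adgre1, the F4/80 gene, went from 206 to 480 CPM in CTR to 2114 to 2312 CPM in TDE libraries. Over the other 9 macrophage markers the sums were 3740 to 4391, 3574 to 3965 and 3162 to 3342 CPM, lower in TDE libraries. With all libraries, 1 macrophage marker rose and 2 fell against CTR, and 1 rose and 1 fell against NE. Dendritic cell markers summed to 4108 to 12772, 3903 to 4895 and 2095 to 2223 CPM, with 4 of 9 tested lower against CTR and 2 of 9 against NE. Fibroblast markers, which could report RNA of the source cells of the NE exosomes, summed to 6.46 to 7.61, 6.29 to 7.71 and 10.8 to 11.8 CPM. The CTR and NE sums overlapped, and the TDE sums were higher than both. Of 6 tested, 2 rose against CTR and 1 against NE, and against NE 3 log2 fold changes were positive and 3 negative. Without CTR library 1 the counts were the same against CTR and NE for each of these lists of immune cells: 2 of 10 macrophage markers rose and 7 fell, 1 of 10 neutrophil markers rose and 9 fell, and 7 of 9 dendritic cell, 9 of 9 eosinophil and 8 of 8 mast cell and basophil markers fell. Of all genes, 18.0% were then lower and 16.4% higher against CTR, and 21.5% and 19.2% against NE. The part of any of these cell types in the results was not tested. In bulk RNA, fewer cells of a type and less RNA per cell cannot be told apart.

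**Figure D2:**
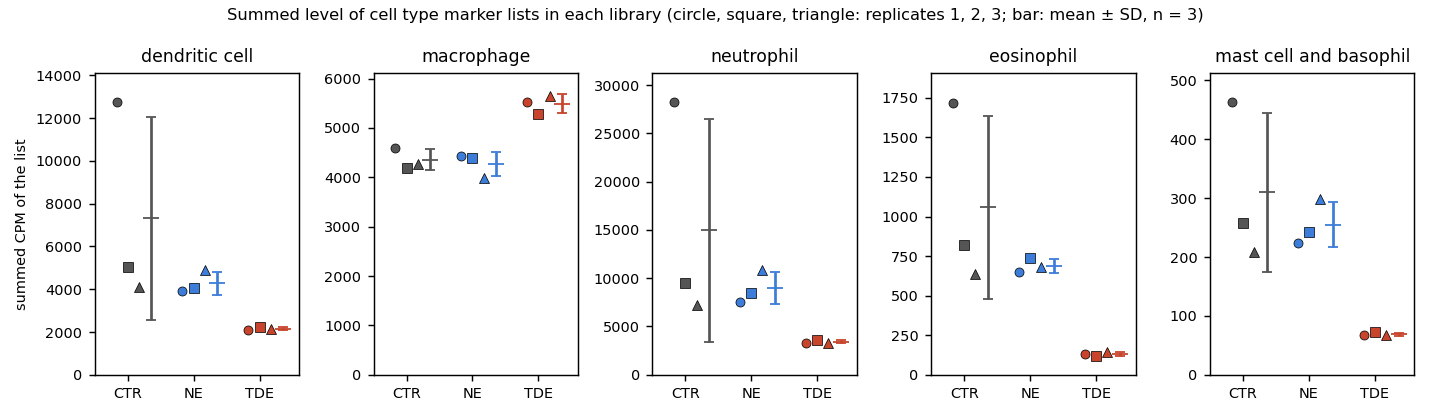
Summed CPM of the marker lists of 5 cell types (vertical axes, each from 0) in each library, with replicates 1, 2 and 3 as circle, square and triangle and bars for mean ± SD (n = 3). The eosinophil sum lies at 118 to 147 CPM in TDE libraries and at 634 CPM or more in CTR libraries, and CTR library 1 is the highest for each list except that of macrophages.

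Alox5 (chr6:116410077-116461178), which encodes 5-lipoxygenase, held 66.8, 79.5 and 74.4 CPM in CTR, 75.4, 79.4 and 79.3 in NE, and 68.1, 69.1 and 71.3 in TDE libraries. The TDE libraries overlapped the CTR libraries and lay just under the NE libraries. Neither difference passed, with log2 fold changes of -0.08 (95% interval -0.34 to 0.18) against CTR and -0.17 (-0.43 to 0.09) against NE. The Alox15/Alox5 ratio per length was 6.16-fold lower in TDE than in CTR and 6.72-fold lower than in NE libraries (exact permutation p = 0.1 each).

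Alox5ap (chr5:149264767-149288153), whose product presents arachidonic acid to ALOX5, held 889, 562 and 465 CPM in CTR, 459, 476 and 623 in NE, and 551, 556 and 550 in TDE libraries. All 3 groups overlapped. Its log2 fold change was -0.21 (95% interval -0.77 to 0.35) against CTR, or 0.10 (adjusted p = 0.626) without CTR library 1, and 0.09 (-0.47 to 0.65) against NE.

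Lta4h (chr10:93453411-93484875), whose product makes leukotriene B4, held 163, 143 and 128 CPM in CTR, 132, 138 and 141 in NE, and 139, 127 and 127 in TDE libraries. The groups overlapped here too. The log2 fold change was -0.14 (95% interval -0.43 to 0.15) against CTR and -0.06 (-0.36 to 0.23) against NE.

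Ltc4s (chr11:50236461-50238616), whose product makes leukotriene C4, held 85.4, 16.3 and 13.6 CPM in CTR, 11, 11.3 and 15.4 in NE, and 10.3, 8.9 and 9.14 in TDE libraries. The 85.4 CPM of CTR library 1 set the CTR mean, and all TDE libraries lay below the other 6. The log2 fold change against CTR was -2.02 (adjusted p = 0.0684), and without CTR library 1 it was -0.67 (adjusted p = 0.0111). Without CTR library 2 it was -2.38 (adjusted p = 0.0481) and without CTR library 3 it was -2.42 (adjusted p = 0.0247). Against NE it was -0.42 (adjusted p = 0.783), and -0.43 (adjusted p = 0.0459) without CTR library 1. The Ltc4s/Lta4h ratio per length was lower in TDE libraries by a log2 difference of -1.36 from CTR, of -0.61 without CTR library 1, and of -0.34 from NE (exact permutation p = 0.1 against each group with all libraries). Ltc4s is also used by mast cells, basophils and eosinophils, whose summed markers are given with Alox15. Gm26542 on the opposite strand overlaps exons of Ltc4s, as Gm42962 does for Tbxas1 and Gm19719 for Alox5ap.

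**Figure D3:**
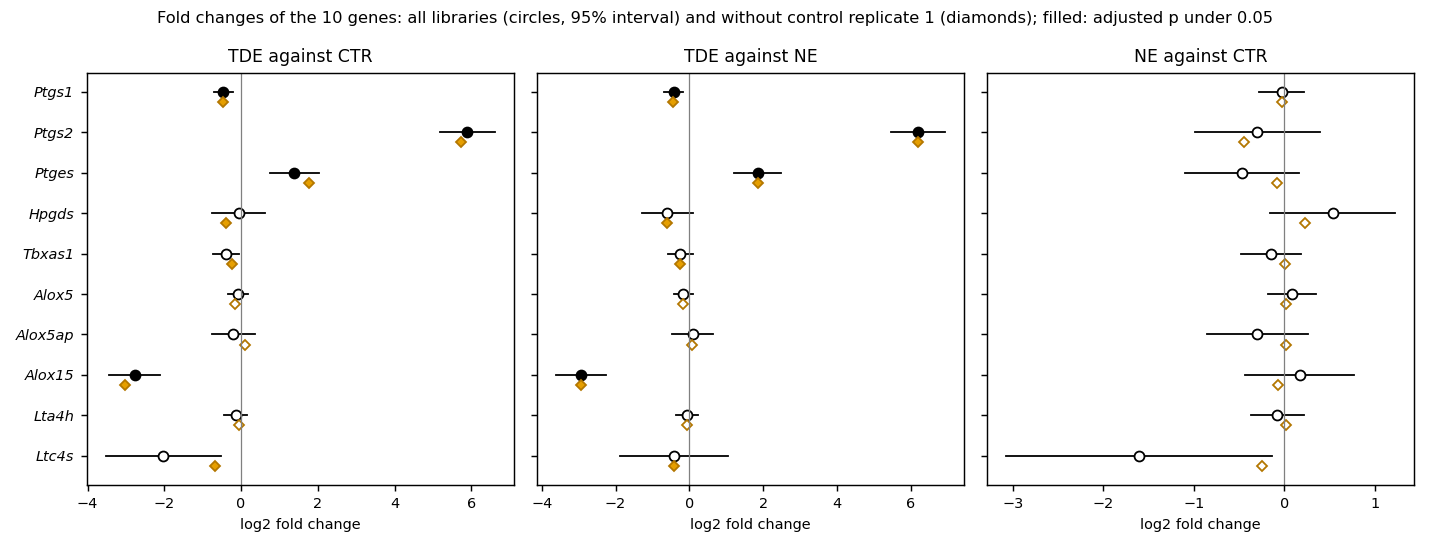
Log2 fold changes of the 10 genes (horizontal axes) in TDE against CTR, TDE against NE and NE against CTR, from all libraries (circles with 95% intervals) and without CTR replicate 1 (diamonds), filled where the adjusted p is under 0.05. Ptgs2 at 5.89 and Alox15 at -2.77 mark the ends against CTR, and no symbol is filled for NE against CTR.

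The comparison of NE-treated with CTR BMDCs asks what exosomes from non-cancerous cells do to the same genes. None of the 10 members passed (0 of 10 by edgeR's quasi-likelihood test, where 0.00% of all genes passed, or 0.0196% without CTR library 1, all of them lower), and 1 had an unadjusted p under 0.05, as 487 of all genes did. DESeq2 and voom called 0 of the 10 as well. That member was Ltc4s, with a log2 fold change of -1.61 (adjusted p = 0.659) with all libraries and -0.25 without CTR library 1. The 95% intervals of the log2 fold changes ran from -0.99 to 0.39 for Ptgs2, from -1.09 to 0.16 for Ptges, from -0.44 to 0.78 for Alox15 and from -0.28 to 0.22 for Ptgs1. No member had libraries without overlap between NE and CTR, a pattern that 7.71% of all genes showed.

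**Figure D4:**
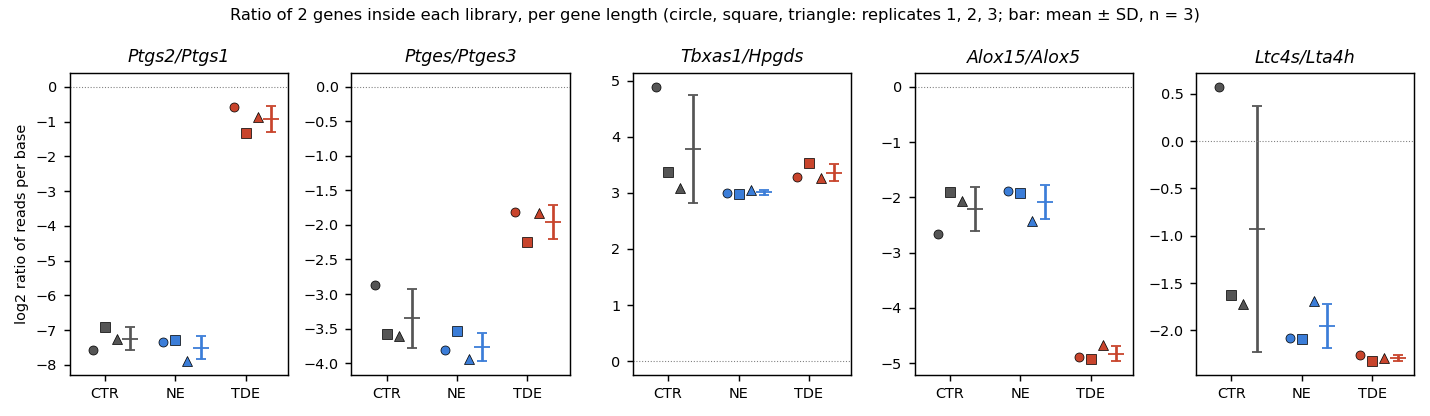
Log2 ratio of reads per base of gene length for 5 pairs of genes (vertical axes) inside each library, with replicates 1, 2 and 3 as circle, square and triangle, bars for mean ± SD (n = 3) and a dotted line at equal levels. The Ptgs2/Ptgs1 ratio is higher in TDE libraries than in CTR libraries by a log2 difference of 6.33, and the Alox15/Alox5 ratio is lower by 2.62 (difference -2.62).

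Levels of different genes are compared here per length, which assumes that reads grow with gene length. The methods describe oligo(dT) and random primers and an amplification at the 3′ end, and the assumption was not tested. In CTR libraries, Alox5ap was the most abundant at 511 ± 178 CPM per kb, followed by Tbxas1 at 112 ± 19.7, Lta4h at 71.2 ± 8.56, Ltc4s at 53.7 ± 56.8 and Ptgs1 at 49.7 ± 0.480 (SD, n = 3). The neighbours Lta4h, Ltc4s and Ptgs1 were within the spread of Ltc4s. Alox5 (26.1 CPM per kb), Hpgds (8.69), Alox15 (5.86) and Ptges (3.54) came next, with overlapping SD ranges for the last 3, and Ptgs2 was last at 0.326. Ltc4s took its place from CTR library 1: over CTR libraries 2 and 3 it averaged 20.9 CPM per kb, below Ptgs1 (49.5) and Alox5 (27.3) and above Hpgds (10.8), and the order of the other 9 members was the same. In TDE libraries the order was Alox5ap at 442 ± 2.78, Tbxas1 at 85.5, Lta4h at 64.6, Ptgs1 at 36.2, Alox5 at 24.6, Ptgs2 at 19.6, Ltc4s at 13.2, Ptges at 9.28, Hpgds at 8.32 and Alox15 at 0.858 CPM per kb, in which the SD ranges of Alox5 and Ptgs2 overlapped, as did those of Ptges and Hpgds. The TDE libraries held at most 23.9 CPM per kb of Ptgs2 and at least 24.1 of Alox5. Ptgs2, last in CTR libraries, thus took the sixth place, behind Alox5, and Alox15 was last.

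Around these enzymes, 76 further genes of the pathway were read, of which 56 were tested. Against CTR, 6 of them rose and 11 fell, where 16.9% of all genes passed (7.57% higher and 9.34% lower), and against NE 8 rose and 9 fell, where 13.9% passed (6.73% higher and 7.21% lower). Their median log2 fold change was -0.20 against CTR and 0.04 against NE, beside -0.05 and -0.02 over all genes. With CTR library 1 left out, 32 passed in each comparison, with 17 higher and 15 lower against CTR and 18 higher and 14 lower against NE. Of all genes, 34.4% then passed against CTR (16.4% higher and 18.0% lower) and 40.7% against NE (19.2% higher and 21.5% lower). The counts of the single lists stand beside these same shares. None of the 56 passed in NE against CTR.

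Among the 23 genes that release, recycle or store arachidonic acid, 15 were tested, and 2 rose and 2 fell in each TDE comparison. Leaving out CTR library 1, 7 passed against CTR (3 higher and 4 lower) and 8 against NE (4 higher and 4 lower). Without TDE library 1, 2 or 3, 2 passed against CTR. Mgll, which encodes monoacylglycerol lipase and frees arachidonic acid from an endocannabinoid, held 32.7 to 37.8 CPM in CTR, 36.3 to 40.4 in NE and 11.3 to 14.6 in TDE libraries (log2 fold change -1.46, adjusted p = 0.000521, against CTR). Daglb, which makes that endocannabinoid, held 53.1 to 88.3, 84.4 to 102 and 38.5 to 40.2 CPM (-0.93, adjusted p = 0.0146). Mgll and Daglb were thus both lower in every TDE library than in any CTR or NE library. Mboat7, which puts arachidonic acid back into phosphatidylinositol, rose by a log2 fold change of 0.87 (adjusted p = 0.00444), from 64.6 to 85.3 CPM in CTR to 137 to 144 CPM in TDE libraries. Pla2g7, whose product inactivates platelet-activating factor, had 0.57 (adjusted p = 0.0281) against CTR, and Pla2g6, a calcium-independent phospholipase A2, had 0.83 (adjusted p = 0.0123) against NE. Exons of Rac1 overlap those of Daglb and exons of Tsen34 those of Mboat7 on the opposite strand.

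Of 15 further prostanoid genes, 12 were tested. Hpgd, whose product inactivates prostaglandin E2, held 0.761 to 1.54 CPM in CTR, 1.79 to 2.28 in NE and 0.157 to 0.443 in TDE libraries, and its log2 fold change was -2.17 (adjusted p = 0.0139) against CTR and -2.85 (adjusted p = 0.00433) against NE. Abcc4, an exporter of prostaglandins among other substrates, held 12.5 to 31.1 CPM in CTR, 23.6 to 32 in NE and 55.5 to 61.1 in TDE libraries, with log2 fold changes of 1.31 against CTR (adjusted p = 0.0211) and 1.01 without CTR library 1. These were the only genes of the list past the test against CTR with all libraries, and Hpgd the only one against NE. The counts were 5 against CTR (4 higher and 1 lower) and 6 against NE (5 higher and 1 lower) without CTR library 1. Without TDE library 1, 1 passed against CTR. Without TDE library 2 or 3, 0 passed against CTR by edgeR's quasi-likelihood test. With all libraries, 2 of the 12 had an unadjusted p under 0.05 in that test, where 5225 of all 15028 tested genes did. DESeq2 called 2 genes of the list against CTR with all libraries, where it called 3731 of all genes. Without CTR library 3, 2 passed against NE.

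Of 22 further leukotriene and lipoxygenase genes, 18 were tested. Against CTR none rose and 7 fell with all libraries, whereas 5 rose and 8 fell without CTR library 1. The median log2 fold change with all libraries was -0.77, beside -0.34 in NE against CTR, where none passed. Alox12, the platelet-type 12-lipoxygenase, held 2.28 to 3.97 CPM in CTR, 2.71 to 3.23 in NE and 0.610 to 1.09 in TDE libraries (log2 fold change -1.82, adjusted p = 0.00664, against CTR). Alox8 and Alox12e, which like Alox12 and Alox15 lie on chromosome 11, had 3 and 5 reads over the TDE libraries beside 43 and 35 over the CTR libraries, for ratios of 0.0726 (95% counting interval 0.0144 to 0.227) and 0.149 (0.0455 to 0.381). All 3 were lower in TDE libraries, as Alox15 was, and had low levels throughout. Cyp4f18, which degrades leukotriene B4, changed against CTR by -1.55 on the log2 scale (adjusted p = 0.0442) and by -0.75 without CTR library 1, in which it held 323 CPM. Against NE, 3 rose and 5 fell. Ggt1, which converts leukotriene C4 to D4, held 0.159 to 0.217 CPM in NE, 0.998 to 2.02 in TDE and 0.406 to 1.52 in CTR libraries (log2 fold change 2.97 against NE, adjusted p = 0.0116). Its NE libraries held only 3, 4 and 4 reads, at or near the limit of 3 reads, beside 18, 37 and 31 in TDE libraries. Without CTR library 1, 13 of the list passed in each TDE comparison, 5 higher and 8 lower in each. Against NE, 4 passed without NE library 1 or 2, and 5 without NE library 3 or any TDE library.

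**Figure D5:**
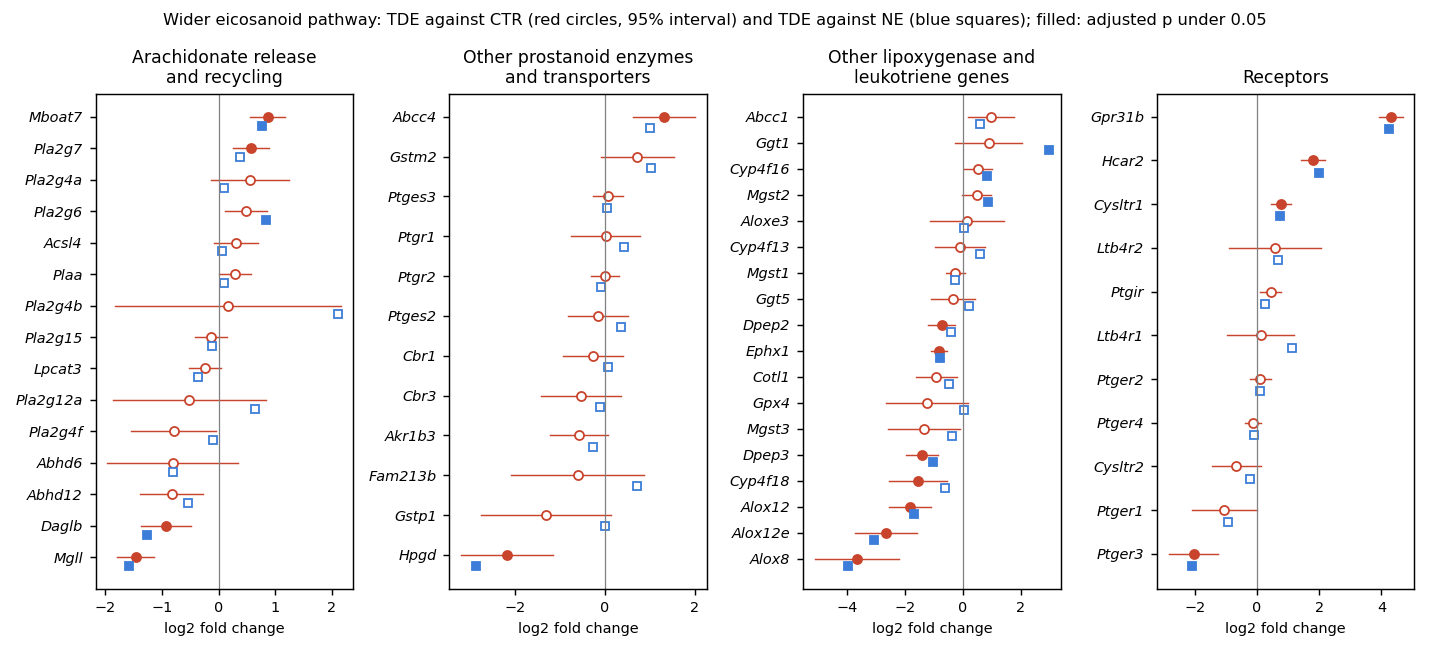
Log2 fold changes (horizontal axes) of the 56 tested genes of 4 lists of the wider pathway in TDE against CTR (red circles with 95% intervals) and TDE against NE (blue squares), filled where the adjusted p is under 0.05. Gpr31b at 4.31 and Alox8 at -3.65 are the extremes against CTR among genes past the test.

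Of 16 receptor genes, 11 were tested, and 3 rose and 1 fell in each TDE comparison. Without CTR library 1, 7 passed against CTR (5 higher and 2 lower) and 5 against NE (4 higher and 1 lower). Gpr31b, a mouse counterpart of a receptor described for a 12-lipoxygenase product, held 2.79, 3.48 and 2.52 CPM in CTR, 3.24, 3.14 and 2.93 in NE, and 61.0, 55.6 and 58.7 in TDE libraries (log2 fold change 4.31, adjusted p = 1.77e-05, against CTR). Hcar2, the niacin receptor, which is listed here because its activation is known to release prostaglandins, rose against CTR by 1.81 on the log2 scale (adjusted p = 0.00045), and Cysltr1, a receptor for cysteinyl leukotrienes, had 0.77 (adjusted p = 0.00879). Ptger3, the EP3 receptor of prostaglandin E2, held 1.41 to 2.12 CPM in CTR, 1.59 to 2.17 in NE and 0.273 to 0.554 in TDE libraries (log2 fold change -2.04, adjusted p = 0.00657). The other prostaglandin E2 receptors did not pass with all libraries. Ptger1, the EP1 receptor, held 7.03, 11 and 21.5 CPM in CTR, 13.3, 17 and 6.27 in NE, and 6.71, 5.62 and 6.74 in TDE libraries. The TDE libraries lay below all CTR libraries and overlapped the NE libraries, with log2 fold changes of -1.06 (adjusted p = 0.142) against CTR, -1.36 (adjusted p = 0.0253) without CTR library 1, and -0.94 (adjusted p = 0.243) against NE. Ptger4 held 58.3 to 66.2 CPM in CTR and 54.7 to 57.6 in TDE libraries, and Ptger2 24.7 to 34.4 and 30.5 to 34.1 CPM. The intervals of the log2 fold changes of Ptger4 and Ptger2 against CTR were -0.38 to 0.13 for Ptger4 and -0.23 to 0.45 for Ptger2.

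The genes whose levels followed Ptgs2 most closely, by Pearson's r of log2 CPM over the 9 libraries, were Bin2 (0.997), Slc2a1 (0.997), Plod1 (0.997), Draxin (0.996) and Per1 (0.996). Those nearest to Alox15 were Rnf144b (0.997), Amer2 (0.995), Padi4 (0.994), 2410002F23Rik (0.994) and Tsc22d1 (0.993). The 9 points fall into groups and share libraries and depth, and 369 genes had an r over 0.95 with Ptgs2 and 276 with Alox15, so these are descriptions of a pattern that many genes have.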

How the data were processed

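RNA-seq libraries of BMDCs were analysed from the table of gene-level estimated counts (expected counts) that the authors deposited, without normalization and with a gene length for each of 57238 entries. The submitters' processing notes name TopHat2 2.1.1, DESeq2 1.24.0 and R 3.3.1. The counting program, its strand setting and the genome build are not given in the sources used here. The table also holds the authors' group means and pathway annotations, which were not used.

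After rounding to whole numbers, low genes were removed with filterByExpr and library sizes were scaled by TMM. All 9 libraries entered 1 fit in edgeR 4.0.16 (limma 3.58.1, R 4.3.3), with a mean for each group. Pairs of groups were compared with the quasi-likelihood F test, adjusted by the Benjamini-Hochberg method over all tested genes with a threshold of 0.05, and the SE was the log2 fold change divided by the square root of F. Ratios between genes had 0.5 counts added, were divided by gene length and were compared by a two-sided exact permutation test, in which 3 libraries against 3 cannot go below 0.1. Counting intervals were exact (95%) and, like the limit of 3 reads, cover counting error only. Python 3.11.15 with pandas 2.3.3 and scipy 1.17.1 was used for tables, and the code was tested on simulated data.

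Positions came from GENCODE vM21 (GRCm38), in which 55450 of 55536 Ensembl IDs were found, and promoter sequences from RefSeq (GRCm38.p6). Fam213b is the table's name for Prxl2b. The name Dpep2 stands on 2 overlapping entries, of which 1 was used, and its counts are uncertain. The members, the wider lists and the marker lists were chosen with earlier results of these data known. The rule for named genes took all members, up to 4 called genes with the largest log2 fold change of each wider list and comparison, and the 5 genes most correlated with the called members at either end. Alternatives were DESeq2 1.42.0, voom with quality weights, median-ratio factors, library totals, no filter or at least 10 counts in every library, the 6 libraries of a pair, a replicate block, a log2 fold change of at least 1, 0 or 2 counts added to ratios, and each library left out in turn.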

Additional observations from a re-analysis of the deposited data

How the results depend on the processing

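All members kept their direction in the TDE comparisons under every alternative except Alox5ap and Hpgds against CTR. Alox5ap turned to 0.020 under voom and ran from -0.39 to 0.10 with each library left out, turning without CTR library 1, and Hpgds ran from -0.38 to 0.23, turning without CTR library 2, CTR library 3 or TDE library 2. In NE against CTR, signs turned for Ptgs1 with library totals (0.099), no filter (0.0069) and voom (0.012), for Tbxas1 with library totals (0.015) and voom (0.036), for Alox5 (-0.016) and Alox15 (-0.024) with voom, and for Lta4h with library totals (0.069). With each library left out, signs there turned without CTR library 1 for Tbxas1 (-0.21 to 0.0084), Alox5ap (-0.48 to 0.014), Alox15 (-0.073 to 0.40) and Lta4h (-0.15 to 0.015). Library totals moved the median log2 fold change of all genes in NE against CTR by 0.12, and the cause of the other turns was not tested.

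Against CTR, 2541 genes passed with all libraries, 1152 in the fit to the pair, 1285 with the replicate block, 7886 with voom and 1583 when the log2 fold change also had to reach 1. Of members (4), 2 passed in the fit to the pair and 7 with voom. Of supply genes (4), 2 passed in the pair and with the block, 10 with voom and 1 with the fold limit. Of prostanoid genes (2), 1 passed with library totals and with at least 10 counts, 0 in the pair and with the block, and 6 with voom. Of leukotriene genes (7), 4 passed in the pair and 15 with voom, and of receptors (4), 7 passed with DESeq2 and 7 with voom. Against NE, 2095 genes passed, 6072 in the pair, 1175 with the block, 8311 with voom and 1307 with the fold limit. Of members (4), 8 passed with voom. Of supply genes (4), 8 passed in the pair, 9 with voom and 2 with the fold limit. Of prostanoid genes (1), 2 passed with DESeq2, 0 with at least 10 counts, 5 in the pair and 8 with voom. Of leukotriene genes (8), 5 passed with at least 10 counts and with the fold limit, 13 in the pair and 14 with voom, and of receptors (4), 7 passed with voom. In NE against CTR, 0 genes passed, with 3 by DESeq2 and 18 by voom.

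With each library left out in turn, 1103 to 5263 genes, 3 to 7 members, 2 to 7 supply, 0 to 5 prostanoid, 5 to 13 leukotriene and 4 to 7 receptor genes passed against CTR. Against NE the counts were 970 to 6223 genes, 3 to 7 members, 3 to 8 supply, 1 to 6 prostanoid, 4 to 13 leukotriene and 3 to 5 receptor genes, and in NE against CTR 0 to 3 genes. The log2 ratio differences against CTR ran from 6.16 to 6.53 for Ptgs2/Ptgs1, 1.26 to 1.64 for Ptges/Ptges3, -0.77 to 0.13 for Tbxas1/Hpgds, -2.85 to -2.47 for Alox15/Alox5 and -1.76 to -0.61 for Ltc4s/Lta4h. Against NE they ran from 6.40 to 6.79, 1.72 to 1.95, 0.26 to 0.40, -2.92 to -2.65 and -0.41 to -0.20, and in NE against CTR from -0.42 to -0.07, -0.54 to -0.17, -1.12 to -0.22, -0.10 to 0.30 and -1.43 to -0.28.

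The replicate numbers did not pair the libraries: the mean correlation of same-numbered deviations was -0.00019 in TDE against CTR, -0.021 in TDE against NE and -0.23 in NE against CTR, and 0 of 9 libraries correlated best with their own number. With the replicate block, 3 members passed in each TDE comparison, and Ptgs1 did not (adjusted p = 0.10 and 0.131). Depth limits Alox8, Alox12e, Ggt1, Hpgd and Ptger3, which had few reads.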
